A study of Homo sapiens with 2 samples.

Results

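The 7SL, RNase P, RNase MRP, vault and BC200 RNAs are short non-coding RNAs made by RNA polymerase III, and 9 of their genes (RN7SL1, RN7SL2, RPPH1, RMRP, VTRNA1-1, VTRNA1-2, VTRNA1-3, VTRNA2-1 and BCYRN1) were examined for R-loops in A549 cells. They were taken by name from 59098 genes of a RefSeq table (GRCh38.p14) on chromosomes 1 to 22 and X. In an R-loop, a nascent RNA stays paired with its DNA template, and the study profiled such hybrids by CUT&Tag, in which an antibody tethers a transposase that cuts and tags nearby DNA. Wild-type A549 cells, an established line from a human lung cancer, gave, per the labels, 1 library with the hybrid-binding antibody S9.6 and 1 with IgG as a non-specific antibody. Peaks of the S9.6 library were examined, and IgG was not analysed here. There was no replicate, so the values below are descriptions of that library and carry no test. Hybrid-dependent and antibody-independent tagging cannot be told apart from this list.

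RNA polymerase III transcribes short genes at high rates from 2 broad kinds of promoter. The genes of RNase P RNA and RNase MRP RNA have promoters that lie wholly upstream of the transcript, with a TATA box, a proximal sequence element bound by the SNAPc complex and a distal element that can hold an octamer. The 7SL, vault and BC200 genes carry promoter boxes inside the transcribed part, as tRNA genes do, together with upstream elements. 7SL is the RNA scaffold of the signal recognition particle, which brings ribosomes to the endoplasmic reticulum, and it is the ancestor of Alu repeats. RNase P RNA (RPPH1) cuts the 5′ leader from precursor tRNAs, and RNase MRP RNA (RMRP) acts in ribosomal RNA processing. Vault RNAs are bound in part to vault particles, VTRNA2-1 is also known as nc886, and BC200 (BCYRN1) is an Alu-derived RNA best known from neurons.

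S9.6 peaks lay at the 2 listed 7SL genes and at the RNase P and RNase MRP genes, and at none of the vault or BC200 genes. A peak within 1000 bp of the gene was listed for 4 of the 9 genes (44.4%, 95% exact binomial interval 13.7 to 78.8, counting error only). Of all 59098 genes 33.3% met the same rule, but most genes are far longer and offer more room. Of the 6113 genes as short as these (88 to 341 bp), 7.59% did. Most of those, 4266, were pseudogenes, of which 4.06% did. In other classes of that length the share was 44.4% of 126 snRNA, 44% of 25 tRNA and 59.5% of 37 rRNA genes. It was 18.4% of 583 miRNA and 7.56% of 886 snoRNA genes. By family, 2 of 2 listed 7SL genes and 2 of 2 RNase P and MRP RNA genes had a peak (interval 15.8 to 100 for each). Of the vault RNA genes 0 of 4 had a peak (interval 0 to 60.2), and of BC200 0 of 1 (0 to 97.5). The vault and BC200 intervals include the 7.59% of short genes. The lack of peaks there therefore does not set these families apart from short genes in general. At each of the 4 genes with a peak, at least part of the gene itself lay under a peak.

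**Figure D1:**
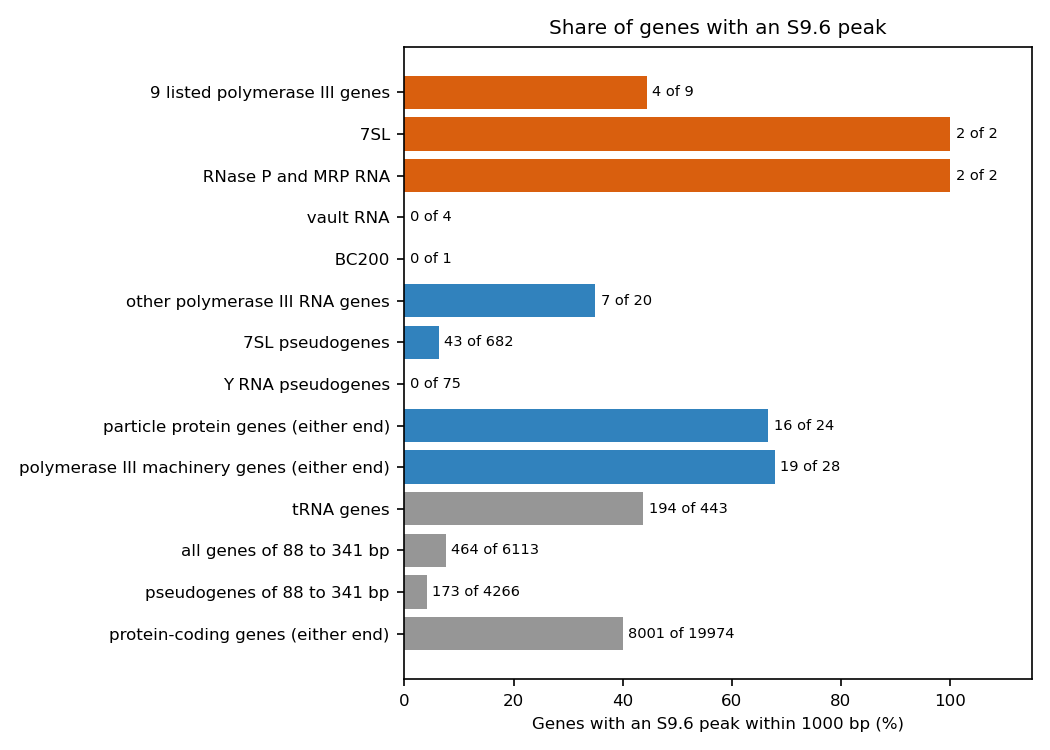
Share of genes with an S9.6 peak within 1000 bp, in percent on the horizontal axis, with the count of genes beside each bar. Orange bars are the 9 genes and their families, blue bars other gene lists and grey bars whole classes of genes; bars marked "either end" count peaks within 1000 bp of a gene's start or end. The 4 of 9 stand above the 7.59% of genes of the same length range, and the vault and BC200 bars are empty.

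DNA beside 3 of the genes is shown to place the peaks against the promoter elements. The sequences come from RefSeq promoter windows (GRCh38.p14, plus strand) of the neighbouring genes PARP2 and CCDC107, which lie next to RPPH1 and RMRP and are transcribed away from them, and of the lncRNA LOC105378198, whose annotated start is the first base of VTRNA1-1. For PARP2 and CCDC107 the 250 bases before the start are printed (the first 27 for PARP2 belong to RPPH1), and capitals mark matches on either strand to 3 motifs, which are TATAA (as in a TATA box), ATTTGCAT (the octamer) and ACCNTAA (letters of the proximal sequence element of U6-type genes). For LOC105378198 the 300 bases run into VTRNA1-1, and capitals mark its first 50 annotated bases.
PARP2 beside RPPH1, chr14:20343385-20343634: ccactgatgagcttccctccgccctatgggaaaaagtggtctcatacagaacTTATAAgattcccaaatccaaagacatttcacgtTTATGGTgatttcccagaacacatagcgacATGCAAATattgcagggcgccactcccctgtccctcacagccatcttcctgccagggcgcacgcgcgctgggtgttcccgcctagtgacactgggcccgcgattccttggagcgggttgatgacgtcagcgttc
CCDC107 beside RMRP, chr9:35658042-35658291: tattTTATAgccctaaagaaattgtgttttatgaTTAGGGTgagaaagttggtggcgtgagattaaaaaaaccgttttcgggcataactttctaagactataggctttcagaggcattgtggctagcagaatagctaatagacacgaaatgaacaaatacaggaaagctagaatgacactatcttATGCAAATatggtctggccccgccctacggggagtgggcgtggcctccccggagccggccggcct
LOC105378198 with VTRNA1-1, chr5:140711026-140711325: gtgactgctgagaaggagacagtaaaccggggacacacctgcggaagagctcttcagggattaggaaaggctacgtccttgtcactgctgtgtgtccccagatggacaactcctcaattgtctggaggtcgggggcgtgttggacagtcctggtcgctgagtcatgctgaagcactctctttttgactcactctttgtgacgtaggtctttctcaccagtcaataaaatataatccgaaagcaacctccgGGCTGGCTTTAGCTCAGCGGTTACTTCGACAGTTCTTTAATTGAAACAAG

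In the PARP2 window the motifs stood in the order of an external polymerase III promoter that reads towards RPPH1. On the minus strand, TATAA lay 26 bp from the upper end of RPPH1, ACCATAA 60 bp and ATTTGCAT 90 bp from it. The TATAA match there is part of the palindrome TTATAA, so the motif was also matched on the plus strand, overlapping by 4 bases. In the CCDC107 window the same 3 motifs lay on the minus strand, with TATAA 27 bp, ACCCTAA 57 bp and ATTTGCAT 208 bp from the upper end of RMRP. The VTRNA1-1 window held TATAA on the plus strand, ending 18 bp before the first base of VTRNA1-1, and no match to the other motifs. Among 35116 promoter windows of 300 bases, TATAA was found in 20.4%, ACCNTAA in 5.56% and ATTTGCAT in 1.77%, both strands searched. The motifs were taken from known promoters of this kind, RPPH1 among them, so their presence here is a description.

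The peaks over these windows differed. All 3 motifs were found in 21 of the 35116 windows, and 2 of the 21 overlapped an S9.6 peak, which were the windows of PARP2 and CCDC107. Of all windows 21.7% overlapped a peak. The peak at RPPH1 covered 238 of the 250 bases printed for PARP2, and the peak at RMRP covered 250 of the 250 printed for CCDC107. No base of the VTRNA1-1 window lay in a peak. By base composition the windows did not stand out as GC-rich, since G and C made up 58.3% of the PARP2 window, 51% of the CCDC107 window and 50% of the LOC105378198 window, against a median of 58.7% over all windows.

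RPPH1 had the highest peak of the 9 genes. The gene lies on chromosome 14 from 20343071 to 20343411 and is 341 bp long, and its single peak ran from 20342742 to 20343622. The peak was 881 bp wide, with a total signal of 4398 (the coverage summed over its bases) and a maximum coverage of 12. Its mean coverage, the total divided by the width, was 4.99. Of the 47810 peaks in the list, 1.13% reached a maximum of 12, whereas the median maximum was 2. The region of maximum coverage, 20343229 to 20343247, was 19 bp wide and lay in the middle of the RNA gene, 158 bp from its lower end and 164 bp from its upper end. All 341 bases of RPPH1 were under the peak, which reached 329 bp past the lower end of the gene and 211 bp past its upper end.

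The peak at RPPH1 counts for a second gene as well. PARP2, which encodes a poly(ADP-ribose) polymerase of DNA repair, begins 223 bp from RPPH1. The peak stopped 12 bp before the annotated start of PARP2, so none of the PARP2 gene was under it, while it lay within 1000 bp of that start. The next peak in the list within 10 kb of RPPH1 did not reach within 1000 bp of it, and 5 peaks, its own included, lay within 100 kb.

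RMRP had a lower but much broader peak. The gene spans 35657750 to 35658019 on chromosome 9, 270 bp, and its single peak ran from 35656634 to 35658953. At 2320 bp it was among the widest in the list, where 0.60% of peaks were at least as wide against a median width of 686 bp. Its total signal of 5716 was the largest near any of the 9 genes, its maximum coverage was 8 and its mean coverage 2.46. Of all peaks 2.89% reached a maximum of 8, and 1.25% had a total as large. The maximum was confined to 4 bp, 35657997 to 35658000, inside RMRP and 19 bp from its upper end, the side on which the TATAA match lies. All 270 bases of RMRP were under the peak, which extended 1116 bp below and 934 bp above the gene.

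The RMRP peak lay within 1000 bp of 2 protein-coding genes. CCDC107, which encodes a coiled-coil protein, begins 272 bp from RMRP, and 662 of its bases were under the peak. ARHGEF39 has its nearer end 1323 bp from RMRP and 389 bp past the peak, and so it too counts as having a peak within 1000 bp. The list gives a single region here, so how much of the signal belongs to each gene cannot be told apart.

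RPPH1 and RMRP were the 2 members with a boundary (an outer end of the annotated span) of a protein-coding gene within 1000 bp, and both had a peak. Among all short genes (88 to 341 bp, not protein-coding, these members included) a peak was listed for 33.3% of the 249 with such a boundary nearby and for 6.39% of the 5820 without. Of the 7 members without such a boundary, 2 had a peak. The part of the neighbouring genes in the peaks at RPPH1 and RMRP was not tested. Heights as at these genes were uncommon among short genes. A peak of maximum coverage 12 or more was near 34 of 6113 (0.556%), and of 8 or more near 60 (0.982%). Those 60 comprised 18 of 126 snRNA genes, 15 of 583 miRNA genes, 12 of 4262 pseudogenes and 6 of 886 snoRNA genes. The rest were 4 of 37 rRNA genes, 2 of 25 tRNA genes, 1 of 44 protein-coding genes, RPPH1 and RMRP.

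**Figure D2:**
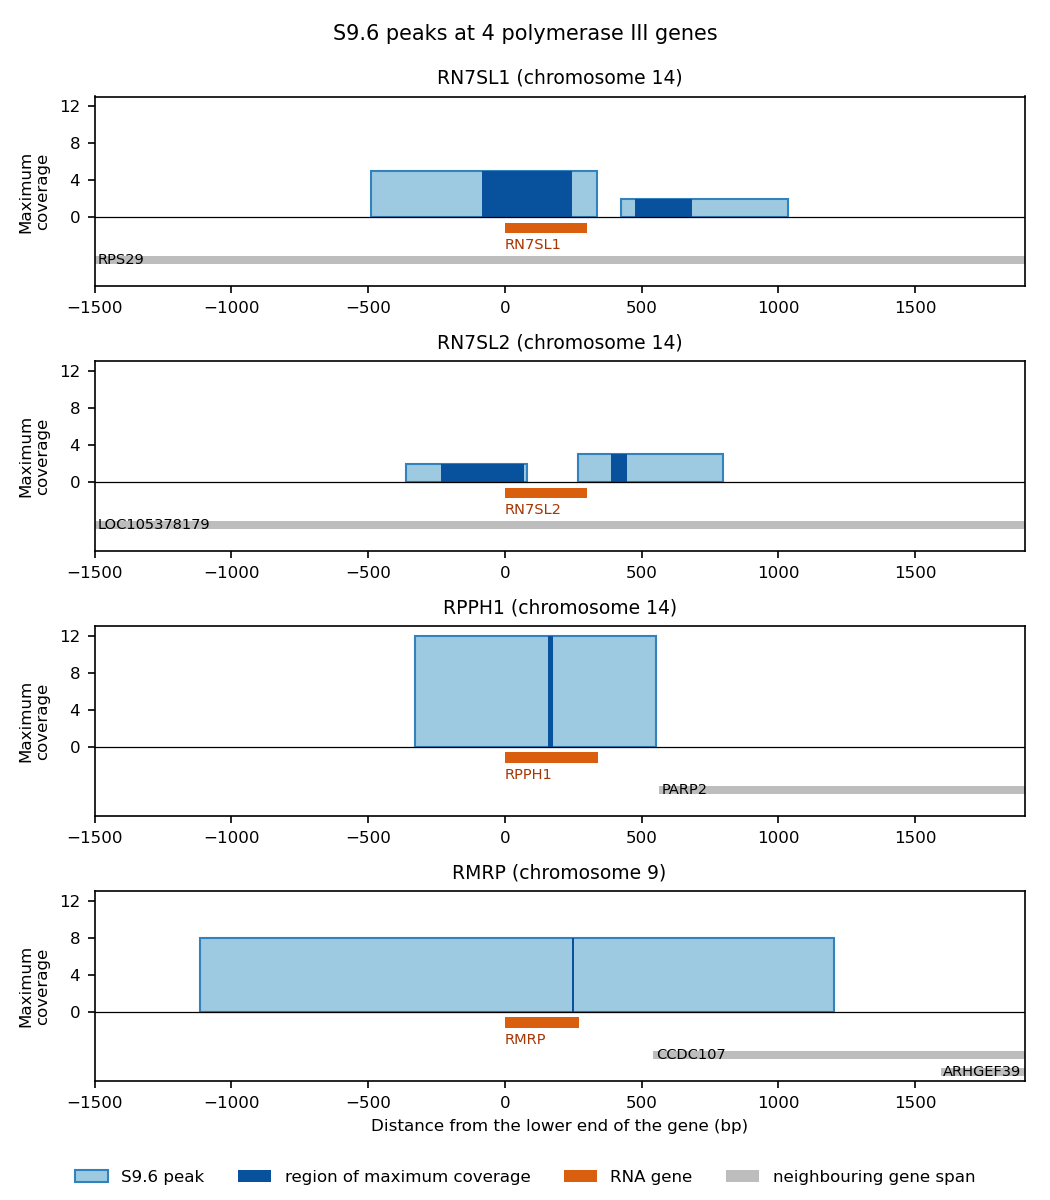
S9.6 peaks around the 4 genes that had them. The horizontal axis is the distance in bp from the lower end of each gene, the height of each box is the maximum coverage of that peak (not its profile along the box), dark blue marks the region of maximum coverage, orange the RNA gene and grey the spans of neighbouring genes. The maximum lies within RPPH1 and RMRP, covers most of RN7SL1, and at RN7SL2 the 2 low peaks leave the middle of the gene uncovered.

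Both listed 7SL genes lie on chromosome 14 and share their length of 299 bp, but their peaks had different shapes. RN7SL1, from 49586580 to 49586878, had 2 peaks. The first, from 49586089 to 49586917, was 829 bp wide, with a total signal of 2718, a maximum coverage of 5 and a mean of 3.28. It covered all 299 bases of the gene, and 247 of them were in the region of maximum coverage, 49586497 to 49586826. The second followed after a gap of 87 bp, ran from 49587005 to 49587613 (609 bp) and was low, with a total of 818 and a maximum of 2. Of all peaks 9.95% reached the maximum of 5 seen at RN7SL1.

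RN7SL2, from 49862551 to 49862849, had lower peaks on both sides. The first ran from 49862188 to 49862631 (444 bp, total signal 746, maximum coverage 2) and covered 81 bases at the lower end of the gene. The second ran from 49862820 to 49863348 (529 bp, total signal 888, maximum coverage 3) and covered 30 bases at the upper end. The 188 bases between them lay inside the gene and in no peak, so 37.1% of RN7SL2 was under a peak. The region of maximum coverage of the second peak began 89 bp past the gene. Nearly all peaks (99.96%) reached the maximum of 2, and 45.8% reached 3, so the heights at RN7SL2 were ordinary for this list.

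The 2 genes also differ in surroundings. RN7SL1 lies inside the span of the ribosomal protein gene RPS29. Its 2 peaks were the only peaks of that span and its flanks of 1000 bp, with none at the outer ends of the span. RN7SL2 lies inside the lncRNA LOC105378179, whose 3 peaks were likewise away from its ends. The nearest outer end of a protein-coding gene span was 11831 bp from RN7SL1 and 9762 bp from RN7SL2. Only the outer ends of spans were used. Starts of transcripts inside a span, such as that of RPS29, were not examined and may lie nearer. 7SL genes are near-identical in sequence and many genomic copies resemble them, so the copy that a fragment from inside the gene came from is uncertain. How reads with several places to map were treated is not stated in the sources used here.

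The third 7SL gene of the table, RN7SL3, had no peak. It lies on chromosome 14 from 49853616 to 49853914, 8636 bp from RN7SL2, and has the same length of 299 bp. The nearest peak was 8273 bp away and is the lower of those at RN7SL2. RN7SL3 was counted with the sequence relatives of 7SL, which were all numbered RN7SL symbols ending in P (681) and RN7SL3. Of these 682, 43 had a peak within 1000 bp (6.30%, 95% exact binomial interval 4.60 to 8.40), beside 4.06% of the 4266 pseudogenes of 88 to 341 bp. Those 4266 include most of the 682. At 20 of the 43, the peak touched the copy itself. The peaks were low, with a maximum of 2 at 26 copies, 3 at 13 and 4 at 2. The highest was 12 at RN7SL525P, from a peak on chromosome 19 from 58543274 to 58544678 that also lies within 1000 bp of TRIM28. It covered all 280 bases of that copy. Next were 5 at RN7SL521P, beside ZNF425 and ZNF398, and 4 at RN7SL663P and RN7SL66P. The peaks of 5 at RN7SL521P and 4 at RN7SL663P did not touch these copies, and the peaks that did reached 3 and 2. The peak at RN7SL66P covered 84 of its bases. Of the 12 copies near a protein-coding boundary, 5 had a peak, against 38 of the other 670.

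**Figure D3:**
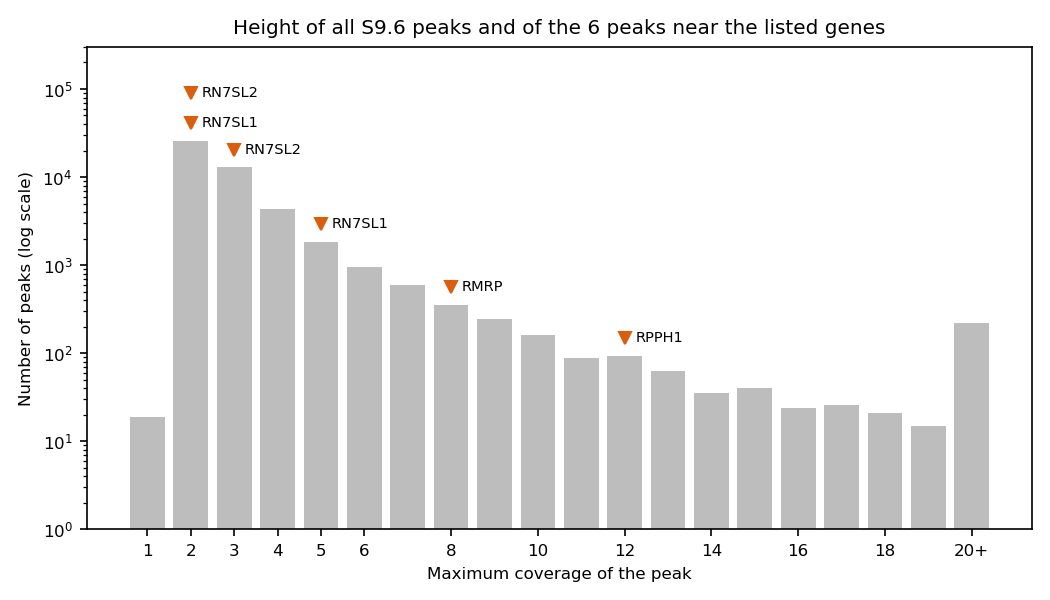
Number of S9.6 peaks, on a logarithmic vertical axis, by maximum coverage on the horizontal axis (20 and above pooled). Orange triangles mark the 6 peaks within 1000 bp of the listed genes, with the name of the gene. RPPH1 at 12 and RMRP at 8 lie in the upper tail, RN7SL1 reaches 5, and the other 3 peaks lie at 2 or 3, where most peaks are.

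The vault RNA genes had no peak within 1000 bp. VTRNA1-1 (140711276 to 140711373, 98 bp), VTRNA1-2 (140718926 to 140719013, 88 bp) and VTRNA1-3 (140726159 to 140726246, 88 bp) form a cluster on chromosome 5. For all 3, the nearest peak was that from 140674859 to 140675593, with a total signal of 1109 and a maximum coverage of 3. It was 35682 bp from VTRNA1-1, 43332 bp from VTRNA1-2 and 50565 bp from VTRNA1-3. LOC105378198, a lncRNA of 46805 bp whose span contains the cluster, had no peak along its span or in its flanks of 1000 bp.

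The wider neighbourhood of the vault genes was not empty. Within 100 kb, 5 peaks lay around each of the 3 clustered genes, where the median over all genes was 3 and the middle range (quartiles) 1 to 8. VTRNA2-1, from 136080491 to 136080598 on the same chromosome (108 bp), had 3 peaks within 100 kb. The nearest was 9583 bp away, from 136070125 to 136070907, with a total signal of 971 and a maximum coverage of 2. RN7SL1 had 6 peaks within 100 kb, RN7SL2 and RPPH1 5 each, RMRP 15 and BCYRN1 12. These counts include a gene's own peaks, 2 at each of RN7SL1 and RN7SL2 and 1 at each of RPPH1 and RMRP. The counts, own peaks included, overlapped between genes with and without a peak of their own.

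BCYRN1, from 47335315 to 47335514 on chromosome 2 (200 bp), lies inside the span of the lncRNA EPCAM-DT. That span of 152670 bp and its flanks held 9 peaks, none within 1000 bp of BCYRN1. The nearest, 9079 bp away, ran from 47344594 to 47345432 across an end of EPCAM-DT, with a total signal of 1885 and a maximum coverage of 6, and it was the highest of the 9. Signal below the authors' threshold is not listed, and BC200 has many Alu relatives to which short fragments could also map.

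Other genes transcribed by polymerase III gave a mixed picture of the same kind. Of 20 listed RNA genes, 7 had a peak (35.0%, 95% exact binomial interval 15.4 to 59.2), and at 5 of the 7 it touched the gene. Beside this stand the 7.59% of all genes of 88 to 341 bp and the 33.3% of all genes. Among snRNA genes of 88 to 341 bp, which include some of the 20, the share was 44.4%. RN7SK, whose RNA restrains the elongation factor P-TEFb, had a peak of maximum coverage 3 (chromosome 6, 52995266 to 52996134) that covered all 332 of its bases. Of the 4 Y RNA genes, which lie in a row on chromosome 7, RNY1 had a peak of 4 (148986744 to 148987851) over the whole gene. RNY3, RNY4 and RNY5 had none. Among U6 and U6atac genes, RNU6ATAC reached 5 and RNU6-7 reached 4, while RNU6-1, RNU6-2, RNU6-8, RNU6-9 and RNU6V had none. Of 8 snaR genes, SNAR-C1 reached 6, SNAR-A1 5 and SNAR-B1 2, and SNAR-D, SNAR-E, SNAR-F, SNAR-H and SNAR-I had none. The snaR and U6 genes have near-identical copies, and the peaks counted for SNAR-A1 and SNAR-B1 did not touch these genes.

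The highest of these 20 genes, SNAR-C1 at 6, stood below the 12 of RPPH1 and the 8 of RMRP. Transfer RNA genes, which polymerase III also transcribes, had a peak in 194 of 443 cases (43.8%), with a median maximum of 5 among those with a peak. None of 75 Y RNA pseudogenes had a peak within 1000 bp (95% exact binomial interval 0 to 4.80%). None of 7 numbered copies of RNase P, RNase MRP, vault and BC200 genes had one either (interval 0 to 41.0%). The copies were RPPH1-2P, RPPH1-3P, RMRPP5, VTRNA2-2P, VTRNA3-1P, BCYRN1P1 and BCYRN1P3. Both intervals include the 4.06% of pseudogenes as short as the listed genes, a class that holds some of these copies. The counts therefore do not set either group apart from such pseudogenes.

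Genes of proteins of the particles that hold these RNAs, with the signal recognition particle receptor, La and RO60, were compared at their ends. Of 24 such genes, 16 had a peak within 1000 bp of either end (66.7%, 95% exact binomial interval 44.7 to 84.4), beside 40.1% of 19974 protein-coding genes. All 3 vault protein genes had a peak, with maxima of 5 at MVP, the main shell protein, 4 at TEP1 and 3 at PARP4. The peaks at MVP also lie within 1000 bp of MVP-DT and PAGR1, and that at PARP4 of LOC105370117. No vault RNA gene had a peak, but those genes are only 88 to 108 bp long. Of all genes of 88 to 341 bp 7.59% had one, so the 2 counts are not alike. Signal recognition particle genes had peaks in 3 of 8 cases (37.5%), close to the share of all protein-coding genes, with 4 at the receptor subunit SRPRA and 2 at SRP54 and SRP72. The peaks counted for SRPRA and SRP72 did not touch these genes, and that for SRPRA also lies within 1000 bp of FOXRED1. SRP9, SRP14, SRP19, SRP68 and SRPRB had none at their ends, and SRPRB had a peak of 3 inside its span. No test was made of these counts.

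Of 11 genes of RNase P and RNase MRP proteins, 8 had a peak at an end (72.7%), beside 40.1% of protein-coding genes. POP4 had the highest, 8, on chromosome 19 from 29605286 to 29606389 with a total signal of 4575, and RPP25 reached 5. POP1 and POP5 reached 4, POP7, RPP14 and RPP38 reached 3 and RPP25L reached 2. The peak counted for POP1 did not touch that gene and also lies within 1000 bp of RIDA. RPP21, RPP30 and RPP40 had none. SSB, which encodes the La protein that binds the 3′ ends of new polymerase III transcripts, and RO60, whose protein binds Y RNAs, had 4 each. TEP1 lies on chromosome 14 from 20365667 to 20413501, beyond PARP2 from RPPH1. Its peak, 20412793 to 20413495, lay at the far end and was separate from the RPPH1 peak.

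The transcription machinery itself had peaks at 19 of 28 genes (67.9%, 95% exact binomial interval 47.6 to 84.1), beside the same 40.1%. By complex these were 8 of 11 polymerase III subunits, 2 of 4 TFIIIB genes, 4 of 6 TFIIIC genes and 4 of 5 SNAPc genes. The peaks counted for POLR3C, BRF2, TBP and SNAPC4 did not touch these genes and also lie within 1000 bp of a neighbouring gene. MAF1, the repressor of polymerase III, had the highest, a peak of maximum coverage 10 with a total signal of 8980 and a width of 2899 bp that also lies within 1000 bp of SHARPIN. The subunit gene POLR3K followed with 6, from a peak shared with its neighbour SNRNP25, and GTF3C1, which encodes the largest TFIIIC subunit, reached 5. For SNAPc, which binds the proximal sequence element of genes like RPPH1 and RMRP, SNAPC2 reached 4 and SNAPC1, SNAPC4 and SNAPC5 reached 3, while SNAPC3 had no peak. GTF3A, which encodes the 5S-specific factor TFIIIA, and the TFIIIB gene BDP1 had no peak at their ends or inside their spans. The TFIIIB gene BRF1 had none at its ends but 15 peaks inside its long span, the highest with a maximum coverage of 9. Counted over whole spans with 1000 bp on each side, 21 of the 28 genes had a peak, beside 60.4% of protein-coding genes.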

How the data were processed

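The S9.6 peak list was analysed as deposited. The authors deposited whole numbers per peak that were read here as coverage signal, a total and a maximum not scaled to depth; this was inferred from the values and the SEACR column layout, and the number of reads behind a value is unknown. Per the submitters' processing notes, the build was GRCh38 and the tools included SEACR 1.3, Bowtie2 2.4.2, deepTools 3.5.2, fastp 0.23.2, bedtools 2.30.0 and SAMtools 1.9, with no roles given. The peak threshold, whether IgG served as control and how duplicates and multiply mapping reads were handled were not given in the sources used here. Positions are 1-based. A gene counted as having a peak if at least 1 base lay within 1000 bp of its RefSeq span (GRCh38.p14), or, for protein genes, within 1000 bp of either end. Members and lists were chosen with earlier results of these data known, so their shares are descriptions. Every member and its neighbours are named, with the 3 highest genes of each other list; further genes were named after their values were seen. All listed symbols were found. Windows, peak height and the overlap rule were varied. Counting was tested on simulated peaks. Python 3.11.15, pandas 2.3.3, numpy 2.4.6 and scipy 1.17.1 were used.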

Additional observations from a re-analysis of the deposited data

How the results depend on the processing

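No paired analysis was possible because the labels give no replicate numbers and 1 library was analysed. The count of listed genes with a peak was 4 with windows of 500 or 2000 bp, with peaks of maximum coverage 3 or more, with the middle of the maximum region in the window and with at least 50% of the peak in the window; it was 3 with peaks of maximum coverage 5 or more, which leaves out RN7SL2. With windows of 2000 bp, 74 of the 7SL relatives (in place of 43) and 1 Y RNA pseudogene (in place of 0) had a peak. When a maximum of at least 3 was required, 17 of the 7SL relatives had a peak. With 5 or more, 2 of the 7SL relatives, 3 of the other polymerase III RNA genes (in place of 7), 3 of the particle protein genes (in place of 16) and 8 of the machinery genes (in place of 19) had one, since most peaks are lower than that. A gene with signal under the authors' threshold has no entry, the number of reads is unknown, and without an IgG or RNase H-treated track beside it the list cannot separate hybrids from background.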
